A study of Mus musculus with 12 samples.

Results

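The absorbing surface of the cecum takes up sodium, chloride and water through a small set of membrane proteins of its epithelial cells, and 10 genes of this set were followed here among 37074 gene names measured, namely Slc9a3, Slc26a3, Slc12a2, Aqp8, Car1, Car4, Cftr, Scnn1a, Scnn1b and Scnn1g. They were chosen by the measured difference between 72 h and sham, because Slc9a3 had the largest decline of all genes from sham to 72 h, so that the values at 72 h are a description and carry no test. The cecum of C57BL/6 mice was profiled on 1-colour Agilent arrays, 1 array a mouse, in 4 groups of 3 mice. The sham control was taken at 0 h from a sham operation, and the other groups were taken 3, 12 or 72 h after the cecum had been cauterized with bipolar forceps. The mice carried no transgene and were anaesthetized with pentobarbital sodium for the operation, and their age is not given in the sources used here. The sham group was taken at 1 time only, so the effect of time from opening the abdomen cannot be told apart from that of cauterization. The study calls the samples cecum tissues and does not say which part of the cecum was taken for the arrays. Such tissue holds muscle, serosa and blood cells beside the epithelium. A lower level can therefore come from a smaller share of epithelial cells in the sample or from less RNA per cell. These cannot be told apart in such samples.

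Electroneutral salt uptake in the large intestine couples a sodium-proton exchanger, encoded by Slc9a3, to a chloride-bicarbonate exchanger, encoded by Slc26a3. Carbonic anhydrases supply the protons and bicarbonate that both exchange, and water follows the salt, partly through aquaporins such as Aqp8. Secretion runs the other way, with chloride entering the cell through the cotransporter Slc12a2 and leaving through the channel Cftr. The epithelial sodium channel ENaC, built of subunits encoded by Scnn1a, Scnn1b and Scnn1g, takes up the last of the sodium under the control of aldosterone.

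Each array held 62976 spots, of which 59305 were not controls and covered 56605 probes. Between 62.0% and 66.8% of the spots were well above background, no spot was saturated, and replicate arrays correlated across probes at 0.985 to 0.992. All levels below are log2 of the processed intensity minus the 75th percentile of the array, so that a level of 0 is the brightness of the probe at that percentile. Apart from sums and medians over lists and the choice of the brightest probe, levels of different probes were not set against each other. Sham 1 to 3, 3 h 1 to 3 and 12 h 1 and 2 lay on 1 slide, and 12 h 3 and 72 h 1 to 3 on the other, so that slide and the 72 h group could be told apart through 1 array only. The mice were labelled male, but Xist, which is transcribed in female cells, was well above background on 12 of 12 arrays, at -1.32 to -0.50, while the Y-linked genes Ddx3y and Eif2s3y were so on 0 arrays and Uty on 1. The brightest probe of Kdm5d was above background on 12 arrays and its other 5 probes on 0. These values go against the label on every array alike, and the comparisons between groups rest on the treatment labels.

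The 10 genes had 17 probes, of which the 1 with the highest mean over the 12 arrays stood for its gene. A gene was called at a fold above 2 with an adjusted p below 0.05, where p is from limma with Benjamini-Hochberg adjustment over all 56605 probes, and SE is the standard error of the limma difference between group means of 3 arrays. In mm9 coordinates from the scanner output, the probes of Slc9a3 lay at chr13:74306830-74306889 and chr13:74300566-74301172, the latter spanning 607 bases for a probe of 60 bases. The representative probe of Slc26a3 lay at chr12:32137633-32137692, that of Aqp8 at chr7:130611453-130611512 and that of Cftr at chr6:18272654-18272713. The probe of Scnn1g lay at chr7:128911434-128911493. Exons were not assigned, because no annotation of mm9 was used here.

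RefSeq promoter windows of GRCm38.p6 were matched for 7 of the 10 genes, and those of Slc9a3 and of the 3 genes that fell at 12 h are shown, to set their makeup side by side. Each is the 250 bases before the annotated start on the plus strand, at chr13:74121163-74121412 for Slc9a3, chr12:31437969-31438218 for Slc26a3, chr7:123462044-123462293 for Aqp8 and chr6:18170437-18170686 for Cftr. Capitals mark GGGCGG (a GC box), TATAAA (the TATA box), CAAAGGTCA (as HNF4 binds), GTTAAT and ATTAA with any 1 base between them (as HNF1 binds) and TTTATT (as CDX factors bind), each searched on both strands, with overlapping matches run together.
Slc9a3: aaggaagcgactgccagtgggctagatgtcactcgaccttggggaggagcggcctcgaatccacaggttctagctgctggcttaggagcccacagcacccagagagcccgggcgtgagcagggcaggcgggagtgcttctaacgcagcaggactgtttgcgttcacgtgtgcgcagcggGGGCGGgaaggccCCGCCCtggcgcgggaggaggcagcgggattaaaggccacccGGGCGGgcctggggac
Slc26a3: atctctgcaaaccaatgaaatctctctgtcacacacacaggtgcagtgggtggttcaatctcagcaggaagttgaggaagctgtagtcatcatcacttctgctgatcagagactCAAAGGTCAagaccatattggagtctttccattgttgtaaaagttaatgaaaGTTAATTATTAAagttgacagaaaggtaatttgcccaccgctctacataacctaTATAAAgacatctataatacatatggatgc
Aqp8: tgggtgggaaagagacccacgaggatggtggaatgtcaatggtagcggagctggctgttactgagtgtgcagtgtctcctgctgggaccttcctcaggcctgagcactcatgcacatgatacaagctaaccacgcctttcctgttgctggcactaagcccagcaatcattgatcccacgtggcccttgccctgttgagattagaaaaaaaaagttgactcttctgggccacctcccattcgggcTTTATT
Cftr: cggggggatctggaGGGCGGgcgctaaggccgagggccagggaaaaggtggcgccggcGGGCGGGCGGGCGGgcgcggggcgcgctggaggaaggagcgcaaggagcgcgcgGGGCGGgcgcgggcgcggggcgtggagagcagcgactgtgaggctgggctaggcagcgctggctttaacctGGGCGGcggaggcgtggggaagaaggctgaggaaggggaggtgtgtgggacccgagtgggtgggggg
The bases G and C made up 67.6% of the window of Slc9a3, 38.8% of that of Slc26a3, 52.4% of that of Aqp8 and 76.4% of that of Cftr. The window of Cftr held 6 GC boxes and that of Slc9a3 held 3, and 32.7% of 32851 windows of this length held at least 1. The window of Slc26a3 held GTTAATTATTAA 84 bases and CAAAGGTCA 136 bases before the start, motifs found in 0.0609% and 0.426% of all windows. It also held TATAAA 30 bases before the start, which 12.4% of all windows hold. Aqp8 had TTTATT 6 bases before the start, which 18.1% of windows hold. The annotated genes of Slc9a3 and Slc26a3 begin upstream of these windows, at positions 74086255 and 31433142, so that each window belongs to 1 of several starts. The letters TTCNNNGAA, as STAT factors bind, were searched too and matched in 0 of the 7 windows, where 7.02% of all windows hold them. The motifs were chosen after the sequences were seen, and a match is a description of the letters only.

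**Figure D1:**
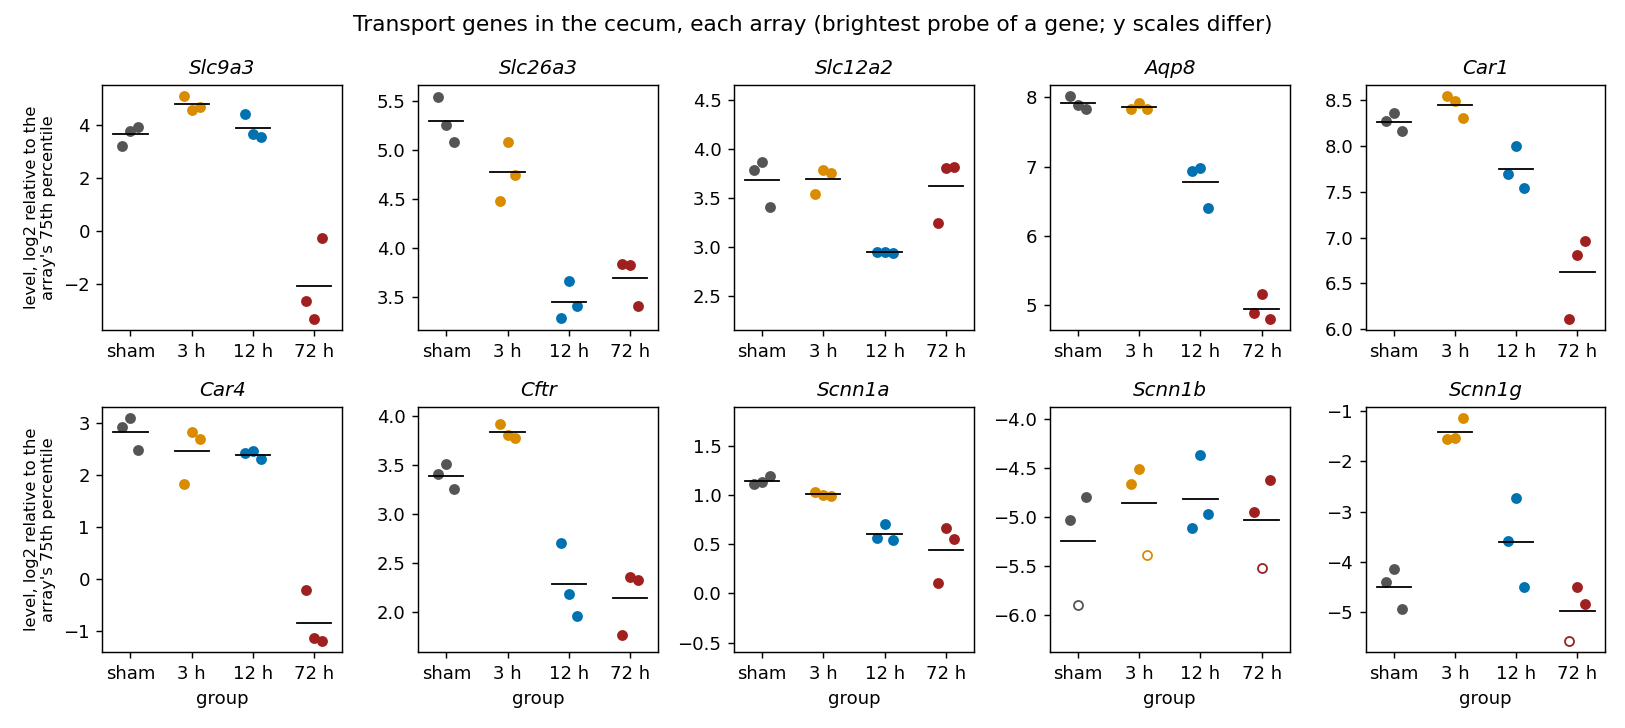
Level of each gene on each of the 12 arrays (log2 relative to the 75th percentile of the array), by group, with a bar at the group mean of 3 arrays; open circles are spots not well above background. Scnn1g stands apart at 3 h, Slc26a3, Aqp8 and Cftr are below sham at 12 h, and Slc9a3, Car4 and Aqp8 are far below all other groups at 72 h.

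At 3 h the transport genes were mostly at the level of sham, and Scnn1g, the gamma subunit of ENaC, was the exception. Its level was -4.41, -4.16 and -4.95 in sham and -1.56, -1.52 and -1.13 at 3 h. All 3 arrays at 3 h lay above every array of the other groups. It rose 8.59-fold, by 3.10 ± 0.43 on the log2 scale (SE, n = 3 and 3, adjusted p = 0.00105). The size of this rise depended on the background correction, since with normexp it was 1.27 on the log2 scale and still called. That made 1 of 10 transport genes higher and 0 lower, where 3.14% of all genes were called higher and 4.33% lower. At an unadjusted limma p below 0.05 and any fold, 1 was higher and 1 lower (Slc26a3). The sham arrays of this comparison also served in the choice of the genes.

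The other ENaC subunits did not follow Scnn1g. Scnn1a, the alpha subunit that the channel needs to conduct, was at 1.12, 1.13 and 1.20 in sham and at 1.03, 1.01 and 0.99 at 3 h, a difference of -0.14 ± 0.14 (adjusted p = 0.506). Its second probe differed by -0.04 ± 0.12. Scnn1b, the beta subunit, was near background, at -5.03, -5.89 and -4.80 in sham and -4.66, -4.51 and -5.39 at 3 h, with 1 array of each group not well above background. Its difference of 0.39 ± 0.36 was not called (adjusted p = 0.474). The differences between subunits were not tested.

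Slc9a3, the apical sodium-proton exchanger NHE3, was higher at 3 h by both probes, but only the dimmer probe passed the test. The representative probe was at 3.21, 3.76 and 3.93 in sham and at 5.08, 4.55 and 4.68 at 3 h. The groups did not overlap, and the difference was 1.14 ± 0.64 (adjusted p = 0.238). The spread behind this p is shared by all groups and includes the wide spread of this probe at 72 h. Without 72 h replicate 3 the same difference was called (adjusted p = 0.029), and it was called within the first slide (adjusted p = 0.0317). The dimmer probe was at -4.26, -4.28 and -3.60 in sham and at -2.44, -3.07 and -2.85 at 3 h. It rose by 1.26 ± 0.27 (adjusted p = 0.0102), a 2.40-fold change.

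Of the remaining absorptive genes at 3 h, none was called. Slc26a3, the chloride-bicarbonate exchanger DRA, was at 5.54, 5.25 and 5.08 in sham and 4.48, 5.09 and 4.74 at 3 h, with 1 array at 3 h inside the sham range. The difference was -0.52 ± 0.20 (adjusted p = 0.0969), and its other probes gave -0.20 and -0.41. Aqp8 differed by -0.05 ± 0.16, Car1 by 0.18 ± 0.21 and Car4 by -0.38 ± 0.31. On the secretory side, Cftr was at 3.40, 3.51 and 3.26 in sham and 3.92, 3.81 and 3.77 at 3 h. All 3 arrays at 3 h were above sham, by 0.44 ± 0.21 (adjusted p = 0.172). Slc12a2, the basolateral cotransporter NKCC1, differed by 0.01 ± 0.17.

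**Figure D2:**
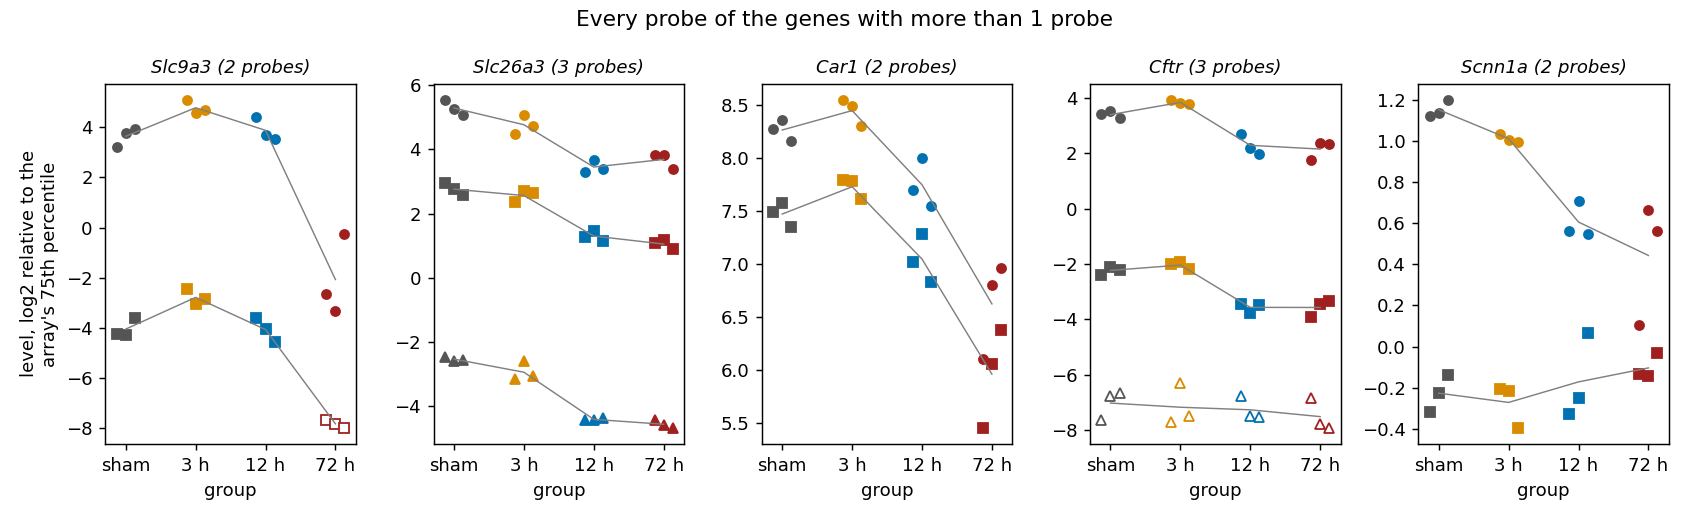
Level of every probe (log2 relative to the 75th percentile of the array) of the 5 genes with more than 1 probe, on each array by group; each marker shape is a probe, lines join group means of 3 arrays, and open markers are not well above background. Both probes of Slc9a3 peak at 3 h and are lowest at 72 h, while the 2 probes of Scnn1a go different ways.

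At 12 h the anion exchanger Slc26a3, the water channel Aqp8 and the chloride channel Cftr fell, so that 3 of 10 transport genes were lower and 0 higher. Of all genes, 5.33% were called lower and 3.95% higher. At an unadjusted limma p below 0.05 and any fold, 6 of the 10 were lower and 0 higher. The median difference over the 10 genes was -0.53, and over all genes it was -0.04. The genes were chosen as different from these same sham arrays at 72 h, so a high sham level would favour a fall at 12 h too, and this count is not independent of the choice. With slide as a block, within the first slide or without 12 h replicate 3, 1 was lower (Slc26a3) and 1 higher (Scnn1g). Slc26a3 changed most. Its level at 12 h was 3.29, 3.67 and 3.41, below every sham and 3 h array, and it fell 3.58-fold, by 1.84 ± 0.20 on the log2 scale (adjusted p = 0.000194). All 3 of its probes were called, with differences of -1.46 and -1.88 for the other probes. In people, loss of this exchanger causes congenital chloride diarrhoea.

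Aqp8, the water channel of the colonic surface, was at 8.02, 7.88 and 7.83 in sham and at 6.94, 6.98 and 6.40 at 12 h. The groups did not overlap, and it fell 2.20-fold (log2 difference -1.14 ± 0.16, adjusted p = 0.000943). Cftr, the cyclic AMP-regulated chloride channel, was at 2.71, 2.19 and 1.95 at 12 h, below every sham array. It fell 2.16-fold (log2 difference -1.11 ± 0.21, adjusted p = 0.00423). Its second probe fell by 1.33 ± 0.17 (adjusted p = 0.000454), and its dimmest probe was above background on 0 of 12 arrays. The array 12 h 3 was on the other slide and was the lowest of its group for both genes. Without 12 h replicate 3, which is also the comparison within the first slide, Aqp8 differed by -0.95 and Cftr by -0.94, under the 2-fold limit with adjusted p of 0.00135 and 0.0143 without that array. Slc26a3 stayed called without any 1 array, at -1.95 to -1.71.

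**Figure D3:**
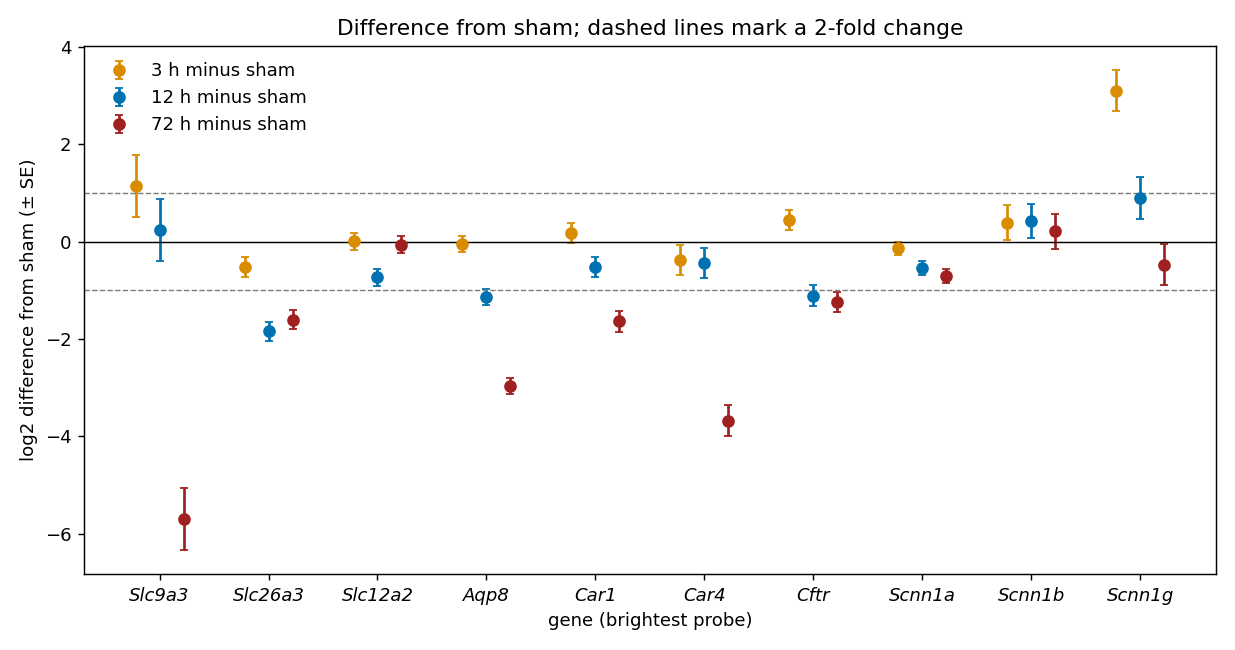
Log2 difference of each gene from sham at 3, 12 and 72 h (points, brightest probe) with the SE of the limma fit (bars), n = 3 arrays a group; dashed lines mark a 2-fold change. Scnn1g at 3 h is the highest point at 3.10, and Slc9a3 at 72 h the lowest at -5.71.

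Slc12a2 and Scnn1a passed the adjusted p but not the fold at 12 h. Slc12a2 was at 3.78, 3.86 and 3.40 in sham and at 2.95, 2.94 and 2.94 at 12 h, all below sham, a difference of -0.74 ± 0.17 (adjusted p = 0.0137). Scnn1a was at 0.56, 0.71 and 0.55 at 12 h, also below every sham array, a difference of -0.55 ± 0.14 (adjusted p = 0.0192). Its second probe differed by 0.05 ± 0.12, so the probes of Scnn1a disagreed. Of the carbonic anhydrases, the cytosolic enzyme gene Car1 differed by -0.52 ± 0.21 (adjusted p = 0.114) and Car4, whose product is anchored at the cell surface, by -0.44 ± 0.31 (adjusted p = 0.385).

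Slc9a3 was close to sham at 12 h, at 4.42, 3.67 and 3.52, with a difference of 0.24 ± 0.64 by the representative probe and -0.02 ± 0.27 by the dimmer one. Thus the exchangers that act as a pair in salt uptake had log2 differences from sham of 0.24 for Slc9a3 and -1.84 for Slc26a3, and this contrast between genes was not tested. Scnn1g was at -3.58, -2.73 and -4.51 at 12 h, a wide spread that touched the sham range, with a difference of 0.90 ± 0.43 (adjusted p = 0.175). Without 12 h replicate 3 it was 1.35 (adjusted p = 0.0336) and was called. Scnn1b differed by 0.42 ± 0.36.

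The difference between 3 and 12 h uses no sham and no 72 h array, although the spread behind its p is shared by all 4 groups. Over it, 4 of 10 transport genes fell and 0 rose, where 1.6% of all genes were called lower and 1.86% higher. At an unadjusted limma p below 0.05 and any fold, 7 were lower and 0 higher. The median difference was -0.82 over the 10 genes and -0.13 over all genes. Scnn1g fell by 2.21 ± 0.43 (adjusted p = 0.0131), but was not called with only these groups in the fit (adjusted p = 0.0566), and with normexp it differed by -1.09. There were falls of 1.55 ± 0.21 for Cftr (adjusted p = 0.00281), 1.32 ± 0.20 for Slc26a3 (adjusted p = 0.00446) and 1.09 ± 0.16 for Aqp8 (adjusted p = 0.00449). For Cftr, Slc26a3 and Aqp8 all 3 arrays at 12 h were below all 3 at 3 h, and so they were for Scnn1g. The dimmer probe of Slc9a3 fell by 1.28 ± 0.27 (adjusted p = 0.0194), while the representative probe differed by -0.90 ± 0.64. Slc12a2 differed by -0.75 ± 0.17 (adjusted p = 0.0282), under the 2-fold limit, and Car4 by -0.06 ± 0.31.

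At 72 h, the time from which the genes were chosen, the values are given as a description. Slc9a3 was at -2.65, -3.31 and -0.26, against 3.21 to 3.93 in sham, a difference of -5.71 ± 0.64. It was -6.61 without 72 h replicate 3 and -5.08 without 72 h replicate 2. Among genes well above background on every sham and every 72 h array, the next largest declines were those of Slc10a2 at -5.07 and Slc37a2 at -5.03. The dimmer probe of Slc9a3 was not well above background on any of the 3 arrays at 72 h, with measured means of -4.05 in sham and -7.82 at 72 h, which makes it at least 3.07-fold lower than sham. The array 72 h 3 stood above the other 2 of its group by the representative probe but not by the dimmer probe, which read -7.66, -7.82 and -7.98.

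Car4 was at 2.92, 3.10 and 2.49 in sham and at -0.21, -1.13 and -1.19 at 72 h, a difference of -3.68 ± 0.31. Aqp8 was at 4.89, 5.15 and 4.80 at 72 h, a difference of -2.96 ± 0.16. Car1 was at 8.27, 8.36 and 8.16 in sham and at 6.11, 6.81 and 6.96 at 72 h, a difference of -1.64 ± 0.21, with -1.51 by its second probe. All 3 genes were lower on every 72 h array than on any other array.

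Slc26a3 and Cftr were at similar levels at 12 and 72 h. Slc26a3 was at 3.84, 3.83 and 3.41 at 72 h, which is -1.60 ± 0.20 from sham and 0.24 ± 0.20 from 12 h. Cftr was at 1.76, 2.36 and 2.33, which is -1.24 ± 0.21 from sham and -0.14 ± 0.21 from 12 h. From 12 to 72 h Slc9a3 differed by -5.94, Car4 by -3.24, Aqp8 by -1.82 and Car1 by -1.12. By this scaling, most of the difference of Slc26a3 and Cftr lay before 12 h, and most of that of Slc9a3 and Car4 after. Aqp8 and Car1 differed in both steps, Car1 by -0.52 (not called) before 12 h. The split depends on the scaling. From 12 to 72 h the median over the 10 genes was -0.67, with 0 called higher and 4 lower. With arrays centred on the epithelial structure genes described below, it was 0.17, with 2 higher and 2 lower. The arrays of 12 and 72 h also lay on different slides, apart from 12 h 3.

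Slc12a2 was at 3.24, 3.80 and 3.81 at 72 h, differing from sham by -0.06 ± 0.17 and from 12 h by 0.67 ± 0.17. Of the ENaC genes, Scnn1a differed from sham by -0.71 ± 0.14 at 72 h, Scnn1g by -0.48 ± 0.43 and Scnn1b by 0.21 ± 0.36. The second probe of Scnn1a differed by 0.12 ± 0.12. In all, 6 of 10 genes were lower and 0 higher at 72 h by the call rule, beside 4.4% of all genes lower and 4.5% higher, and nothing is read from this count. With slide as a block, which leaves 1 array at 12 h to separate slide from time, 2 of them were called, Aqp8 at -2.40 and Car4 at -3.55, and Slc9a3 was at -5.18.

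**Figure D4:**
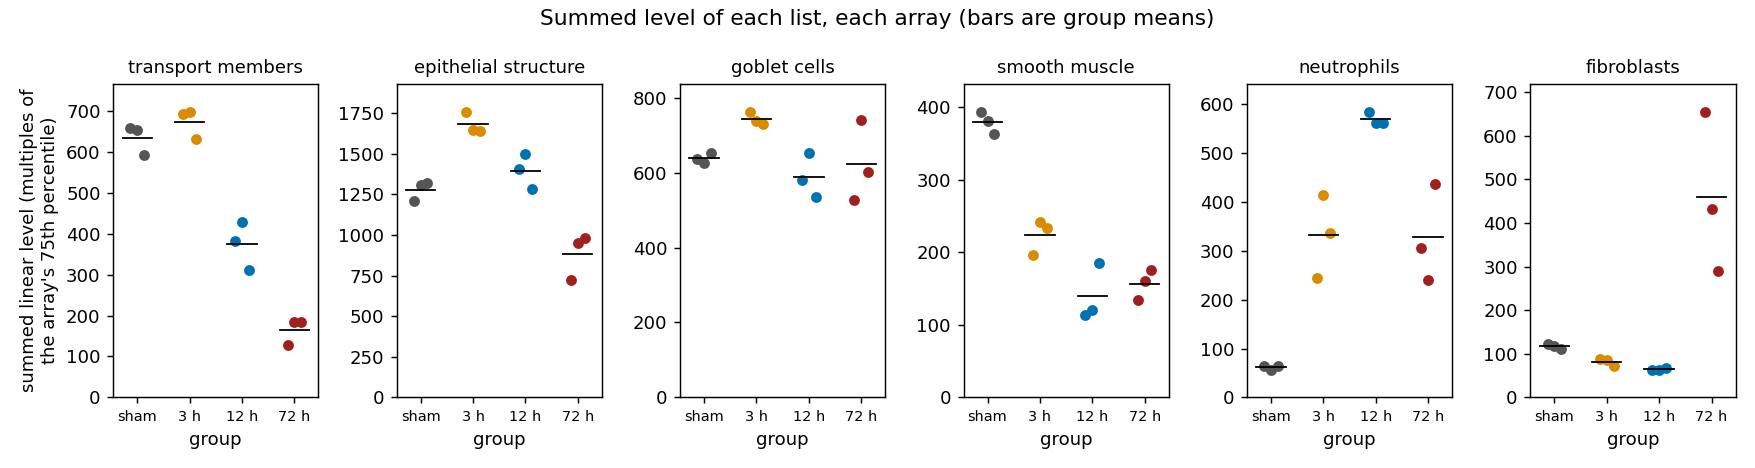
Summed linear level of the transport genes and of 5 marker lists on each array (multiples of the 75th percentile of the array, axes starting at 0), with bars at group means of 3 arrays. The transport genes sum to 592 to 659 in sham and 128 to 185 at 72 h, while epithelial structure genes sum to 1206 to 1322 and 722 to 980. Most of the transport sum comes from Car1 and Aqp8.

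The labelled tissue was checked against its markers. All 13 epithelial structure genes, among them Epcam, Krt8 and Vil1, were well above background on all 12 arrays. The summed linear level of the epithelial structure genes was 1206 to 1322 in sham, 1639 to 1756 at 3 h, 1282 to 1498 at 12 h and 722 to 980 at 72 h. That of the transport genes was 592 to 659, 632 to 697, 311 to 428 and 128 to 185. At 12 h the epithelial sum thus overlapped sham and the transport sum lay below it. Most of the transport sum comes from the brightest probes, those of Car1 and Aqp8, and Car1 was not called at 12 h. The median level of the transport genes was 3.31 to 3.64 in sham and 2.63 to 2.83 at 12 h. That of the epithelial structure genes was 5.77 to 6.02 in sham, 5.62 to 6.13 at 12 h and 4.67 to 5.27 at 72 h. Of the 13 epithelial genes, 1 rose at 3 h (Krt18, by 1.15), 0 were called at 12 h and 1 was lower at 72 h (Cdx2, by 1.02), with median differences of 0.45, 0.11 and -0.55. Cdx2, a transcription factor of the intestinal epithelium, differed from sham by -0.75 at 3 h and -0.94 at 12 h (adjusted p = 0.032 and 0.00927), under the 2-fold limit, and its part in the levels of the transport genes was not tested. With each array centred on the median level of the epithelial structure genes, Slc26a3 at 12 h was at -1.83, Aqp8 at -1.13 and Cftr at -1.10, all still called. From 3 to 12 h, the same centring left 2 called, Scnn1g at -1.91 and Cftr at -1.25, with Slc26a3 at -1.02 and Aqp8 at -0.79. At 72 h it gave 3 genes lower (Slc9a3, Aqp8 and Car4) and 1 higher (Scnn1b, at 1.06, by a probe near background). The median difference of the 10 genes at 72 h was -1.42 before this centring and -0.57 after it. This shift is larger than the median difference of -0.55 of the epithelial genes themselves.

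Other cell types also moved with the groups. Goblet cell genes summed to 626 to 651 in sham, 729 to 761 at 3 h, 535 to 652 at 12 h and 526 to 739 at 72 h, with 0 of 5 called at 3 or 12 h and 1 higher at 72 h. Smooth muscle genes summed to 363 to 393 in sham, 196 to 241 at 3 h, 114 to 185 at 12 h and 134 to 176 at 72 h, with 6 of 6 lower at 12 h. Neutrophil genes summed to 56.2 to 64.4 in sham, 245 to 414 at 3 h, 562 to 584 at 12 h and 241 to 437 at 72 h, with 6 of 7 higher at 3 and at 12 h. The neutrophil receptor Cxcr2 was above background on 0 of 3 sham arrays and on all 9 others. Fibroblast genes summed to 111 to 122 in sham, 62.7 to 68.1 at 12 h and 289 to 654 at 72 h. The 6 macrophage genes summed to 24.3 to 26.0 in sham and 72.6 to 79.2 at 72 h, with all 6 higher then. The part of these changes in the levels of the transport genes was not tested.

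A further 46 genes of the same physiology in 8 lists were measured, and they were for the most part not called. At 3 h, 2 rose and 0 fell, beside 3.14% of all genes higher and 4.33% lower, so the count is near the background. Kcnn4, the calcium-activated potassium channel that drives chloride secretion, was at 1.95, 2.22 and 2.32 in sham and 3.81, 3.55 and 3.43 at 3 h, a rise of 1.44 (adjusted p = 0.00021). Car12, a membrane carbonic anhydrase, rose by 1.06 (adjusted p = 0.0033). Without 3 h replicate 3, 1 of the 46 rose. The median over the 46 genes was 0.03, and over all genes 0.06.

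At 12 h, 0 of the 46 rose and 8 fell, beside 3.95% of all genes higher and 5.33% lower, with a median of -0.33 against -0.04 over all genes. They were Aqp1 (-1.36), a water channel of endothelium, the cytosolic carbonic anhydrase Car2 (-1.24), the aldosterone-induced kinase Sgk1 (-1.18), the potassium channel Kcnma1 (-1.15), the carbonic anhydrase Car14 (-1.12), the anion exchanger Slc4a2 (-1.10), the monocarboxylate transporter Slc16a1 (-1.07) and the kinase Wnk4 (-1.01). Car2 was at 6.19, 6.41 and 6.15 in sham and 5.26, 5.02 and 4.74 at 12 h (adjusted p = 0.0025). Sgk1 was at 5.33, 5.63 and 5.33 in sham and 4.04, 5.06 and 3.64 at 12 h, with wide spread (adjusted p = 0.016). Without 12 h replicate 3, 4 fell and 1 rose, and without sham replicate 2, 5 fell. The part of other cell types in these falls, such as smooth muscle, whose genes were also lower at 12 h, was not tested. From 3 to 12 h, 5 of the 46 fell and 0 rose, beside 1.6% and 1.86% of all genes, namely Wnk4 by 1.38, Kcnn4 by 1.30, the sodium-bicarbonate cotransporter Slc4a7 by 1.29, Car2 by 1.29 and Aqp1 by 1.07.

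**Figure D5:**
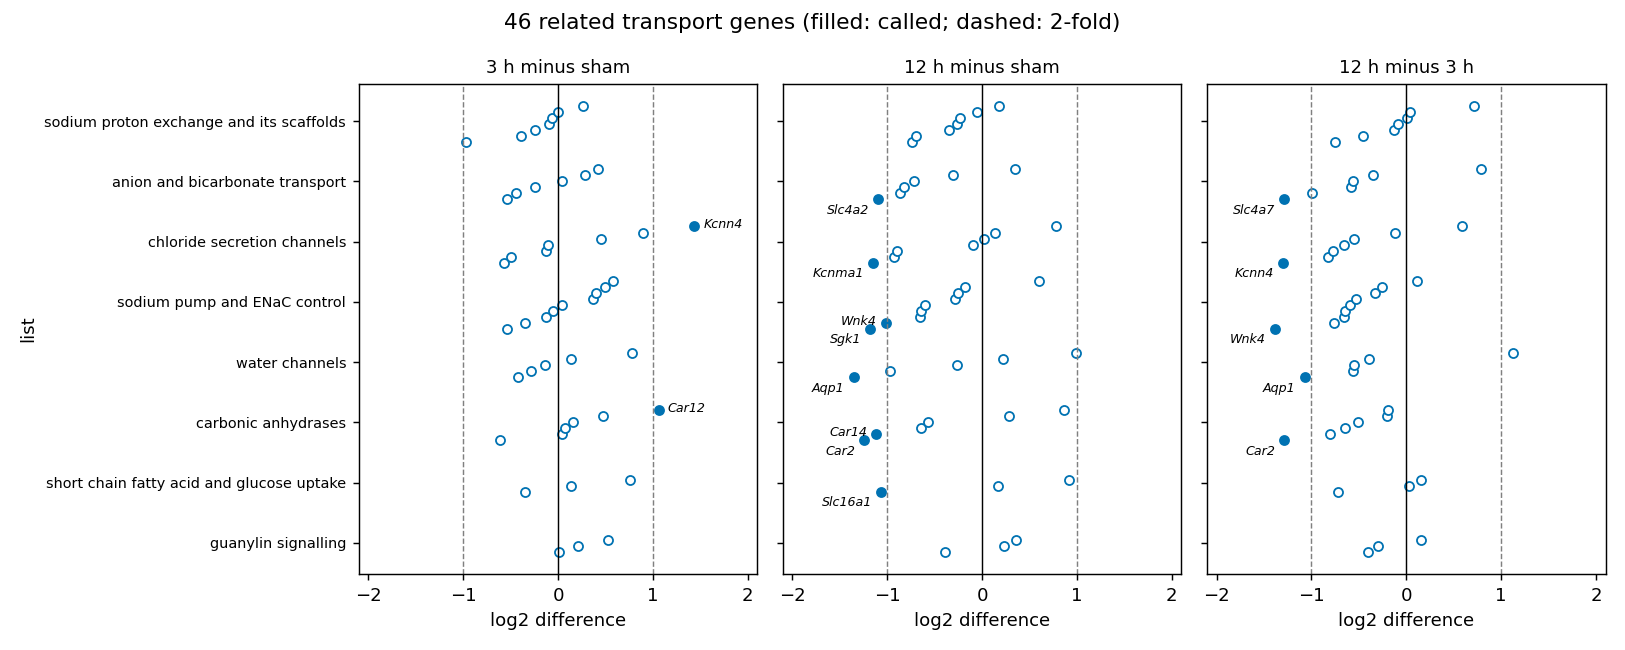
Log2 difference of 46 related transport genes in 8 lists for 3 h minus sham, 12 h minus sham and 12 h minus 3 h (1 point a gene, filled where called, dashed lines at a 2-fold change). At 3 h 2 genes are called, both higher, and at 12 h 8 are called, all lower.

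By list, the partners of Slc9a3 changed little at the early times. The lists are short, and 5.33% of all genes were called lower at 12 h and 4.4% at 72 h. Of 7 sodium-proton exchangers and their scaffolds, 0 were called at 3 or 12 h, and Slc9a2, a related apical exchanger, was lower by 1.35 at 72 h. Of 6 anion and bicarbonate transporters, 1 fell at 12 h, while Slc26a2 and Slc4a7 were lower at 72 h, at -1.25 and -1.21. Of 9 genes of the sodium pump and ENaC control, 2 fell at 12 h, and Sgk1 (-1.70) and the pump subunit gene Atp1b1 (-1.06) were lower at 72 h. Of 6 carbonic anhydrases beside Car1 and Car4, 2 fell at 12 h and 4 were lower at 72 h, with Car2 at -1.57, Car14 at -1.55 and Car9 at -1.35. Aqp11 (-1.08), Slc16a1 (-1.07) and the guanylin receptor Gucy2c (-1.09) were lower at 72 h too. In all, 13 of the 46 were lower and 0 higher at 72 h, beside 4.4% of all genes lower and 4.5% higher. Without 72 h replicate 1, 8 were lower. That count also turned with the scaling, since with arrays centred on the epithelial structure genes 7 were higher and 0 lower, and with slide as a block 1 was called.

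Among 23423 other genes above background on at least 6 arrays, the pattern of Slc9a3 over the 12 arrays was most like that of Vmn2r111 and Slc10a2, with Pearson correlations of 0.97 for both. Slc10a2 encodes the bile acid transporter of the intestinal brush border. It differed from sham by -0.12 after 3 h, by -1.20 after 12 h and by -5.07 after 72 h, while that of Slc9a3 at 12 h was 0.24. Neu1, 2410017I17Rik, 9130221J18Rik and Arf6 came next, at 0.96 to 0.97. A correlation does not compare sizes, and most of these changed far less than Slc9a3, which was at -5.71 at 72 h. Vmn2r111 differed from sham by -0.95 at 72 h, Neu1 by -1.29, 2410017I17Rik by -1.29, 9130221J18Rik by -4.83 and Arf6 by -0.54. The correlation of Aqp8 was highest with Aadac (0.99), that of Slc26a3 with Dcst2 (0.98), that of Cftr with Hdac1 (0.98), that of Scnn1g with Ppp1r10 (0.98) and that of Slc12a2 with Pard3b (0.97). That of Car1 was highest with Chchd10 (0.995). The 12 arrays fall into 4 groups, so these are likenesses of time courses and no test was made.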

How the data were processed

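Cecal RNA of 12 mice was measured on Agilent mouse arrays (SurePrint G3, 8x60K) labelled with Cy3 alone. The authors deposited the Feature Extraction output, with a background-corrected intensity per spot and no scaling between arrays, and a table of log2 values that the authors scaled to the 75th percentile in GeneSpring, centred by row (r = 0.9995 with the values used here once these were centred alike). From the intensities, log2 minus the 75th percentile of each array was computed without control and outlier spots (53 to 152 an array), and spots of a probe were averaged. Group means were fitted over all arrays by limma 3.58.1 (R 4.3.3) and contrasted, with Benjamini-Hochberg adjustment over 56605 probes, and were called at a fold above 2 and an adjusted p below 0.05, the limits of the study's methods. Figures and sequence searches were made in Python 3.11.15. The fit was tested on simulated data without a slide effect, with planted changes at 12 h larger than those of the transport genes there. It does not bear on changes of the size reported at 12 h. The 3 arrays of a group are described as biological replicates by the study, and their number limits the precision.

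The members, lists and named genes were chosen with earlier results of these data known. Named were the 10 genes with every probe, the related genes called against sham with the largest change, up to 3 a list, the genes most like each member, and the genes of the sex check. Wnk4 and Car12 were added after their values were seen, as members of short counts, and genes most like Scnn1a, Scnn1b and Car4, or known only by an accession or position, are not named. Some genes that the rule would name are not reported here. Where no array of a group measured a probe above background, its fold is a bound, taken against whichever was higher on each array, its own signal or the dimmest signal that passed the background test. Marker lists of T cells, B cells, mesothelium, endothelium and enteric neurons and glia were also measured. At 12 h, 0 of 5, 0 of 4, 2 of 5, 0 of 4 and 2 of 6 of them were called, all lower. Alternatives were other scalings and background corrections, the authors' table, filters, probe rules, eBayes settings, slide and replicate blocks, the methods' paired t-test and leaving out each array.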

Additional observations from a re-analysis of the deposited data

Results flagged for a closer look

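By the test of 12 h minus 3 h, 1.6% of all genes were called lower and 1.86% higher. The effect at 12 h differed from that at 3 h for 4 of the 10 transport genes and 5 of the 46 related genes. The log2 difference between these effects was -2.21 for Scnn1g (3.10 at 3 h and 0.90 at 12 h), -1.55 for Cftr (0.44 and -1.11), -1.32 for Slc26a3 (-0.52 and -1.84) and -1.09 for Aqp8 (-0.05 and -1.14). It was -1.38 for Wnk4, -1.30 for Kcnn4, -1.29 for Slc4a7, -1.29 for Car2 and -1.07 for Aqp1. The limma adjusted p of the 5 related genes ran from 0.000874 (Wnk4) to 0.0157 (Aqp1), and that of the transport genes stands in the account of 12 h minus 3 h.

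Every array at 3 h was above the sham mean and every array at 72 h below it for Slc9a3 (mean differences of 1.14 and -5.71), Car1 (0.18 and -1.64) and Cftr (0.44 and -1.24). These opposite movements were not tested, because the genes were chosen on 72 h. The share of all genes that moved so was not computed. The epithelial structure genes moved the same way, with median differences of 0.45 at 3 h and -0.55 at 72 h. The difference of Car1 at 3 h was within its SE of 0.21 and reached -0.10 over the alternatives. Groups of 3 arrays are too small for a test of single outlying arrays.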

How the results depend on the processing

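The counts of called transport genes were 1 at 3 h, 3 at 12 h, 4 for 12 h minus 3 h and 6 at 72 h. The totals kept within 1.5 times under most alternatives. At 3 h, 2 were called with only the groups of the contrast and within slide 1, the second being Slc9a3 in each. At 12 h, the 3 lower became 1 lower and 1 higher with slide as a block, within slide 1 and without 12 h replicate 3. For 12 h minus 3 h, 2 were called with arrays centred on the epithelial structure genes, and at 72 h 2 were called with slide as a block. The methods' t-test is paired, and was run here with arrays paired by replicate number. The study does not say which test its arrays had. This paired t-test gave 1, 3, 3 and 6 at a fold above 2 and an unadjusted p below 0.05. After Benjamini-Hochberg adjustment it gave 0 in each comparison, which is no statement of what the study's own array test called. Leaving out each array gave 1 to 2 at 3 h, 2 to 3 at 12 h and 3 to 4 for 12 h minus 3 h. At 72 h it gave 6 each time. Nothing is read from the counts of transport genes at 72 h, because the genes were chosen on that time. Of the 46 related genes, 2, 8, 5 and 13 were called. At 3 h this became 1 with quantile normalization and with the methods' t-test, unadjusted. At 12 h it became 5 with normexp, with the mean of all probes, with slide as a block and within slide 1 (for both slide settings, 4 lower and 1 higher). At 72 h it became 7, all higher, with epithelial centring and 1 with slide as a block. It was 0 in each comparison with the methods' t-test after adjustment. At an unadjusted limma p below 0.05 and any fold, 13 were higher and 7 lower at 3 h, 6 and 21 at 12 h, and 4 and 26 for 12 h minus 3 h. Leaving out each array gave 1 to 3, 5 to 11, 5 to 7 and 8 to 14. The replicate number as a replicate block gave 1, 3, 4 and 6 transport genes and 2, 8, 5 and 13 related genes. Deviations from the group mean of same-numbered arrays of different groups correlated at r from -0.40 to 0.26. With 3 arrays a group this cannot show whether the numbers pair the mice. The paired t-test assumed that they do. No called difference changed sign. Differences that were not called changed sign in 7 of 243 values at 3 h, 2 of 189 at 12 h, 8 of 162 for 12 h minus 3 h and 10 of 104 at 72 h. Beside the cases named with the results, Cftr at 12 h was at -0.90 by the mean of all probes, Aqp8 for 12 h minus 3 h was at -0.88 by quantile normalization and -0.90 without 12 h replicate 3, and Scnn1g with normexp was at 1.27 at 3 h and -1.09 for 12 h minus 3 h. The cause of these shifts was not tested. Probes near background, such as those of Scnn1b, limit what can be seen.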
